A study of Mus musculus with 10 samples.

Results

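Interferon gamma signaling and its guanylate-binding targets were followed through 9 genes of a NanoString immune panel, *Ifng*, *Ifngr1*, *Jak1*, *Jak2*, *Irf1*, *Socs1*, *Gbp2b*, *Gbp5* and *Irgm2*. The genes were chosen by name, as one ligand, its receptor chain, kinases and targets of one pathway, with earlier results of these data known. All 9 were found among the 770 endogenous and reference probes of the table. RNA, 100 ng of each, came from 5 tumors of WT hosts and 5 tumors of Siah2 KO hosts (WT tumors and KO tumors). The KO hosts lacked the ubiquitin ligase Siah2 in all host cells, while both groups received the same YUMMER1.7 cells, a single mouse melanoma line with a mutant *Braf* allele, and no other treatment. All mice were male and on a C57BL/6 background, 5 to 7 weeks old in the description of the growth experiment and 6 to 10 weeks old in the description of the mice. Tumors were taken 11 days after injection per the sample labels. The paper's figure legend for the NanoString tumors gives 10 days. So does the text on the whole series, which also names other cells and other mice. Siah2 itself was not analysed here, so the genotype rests on the labels. Of 9 genes listed as melanoma markers, 2 were measured. *S100b* had a mean of 14.6 normalized counts (SD 7.96, n = 5) for WT and 1.72 (SD 0.56, n = 5) for KO. It was lower in KO tumors (log2 fold change -2.39, adjusted p = 0.00055 from limma) but too low to check the tissue label. *Mcam* was detected, at 135 (SD 11.9, n = 5) for WT and 121 (SD 24.9, n = 5) for KO, and the label was not checked on this 1 gene.

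Interferon gamma is made mostly by activated T cells and NK cells. It binds a receptor of the chains Ifngr1 and Ifngr2, each of which carries a Janus kinase, Jak1 or Jak2, and these kinases start a signal that reaches gamma-activated sites (GAS) in DNA and switches on early genes, among them *Irf1*, a transcription factor that in turn binds interferon-stimulated response elements (ISRE), and *Socs1*, an inhibitor of the Janus kinases that limits the signal. Later targets include the guanylate-binding proteins, here *Gbp2b* and *Gbp5*, and the immunity-related GTPase *Irgm2*, which act on vacuoles of intracellular pathogens.

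The sequences before the annotated starts are shown for the 5 target genes, because these were the members that were higher in KO tumors apart from the ligand. RefSeq promoters of build GRCm38.p6 were found for 9 of 9 genes, and the 250 bases before each start were searched on both strands for TTCNNNGAA, the letters of a GAS, and for GAAA followed after any 2 bases by another GAAA, the letters of an ISRE. Capitals mark the matches, and each sequence runs 5′ to 3′ along the gene and ends before its annotated first base. The *Irf1* sequence is chr11:53769764-53770013 on the plus strand, that of *Socs1* is chr16:10785537-10785786 on the minus strand, and that of *Irgm2* is chr11:58214727-58214976 on the plus strand. *Gbp5* and *Gbp2b* lie 72.5 kb apart in a cluster of guanylate-binding genes, with sequences at chr3:142496684-142496933 on the plus strand and at chr3:142594597-142594815 on the plus strand. The latter is printed for 219 of the 250 bases searched, since the gene's annotation begins within them.
Irf1: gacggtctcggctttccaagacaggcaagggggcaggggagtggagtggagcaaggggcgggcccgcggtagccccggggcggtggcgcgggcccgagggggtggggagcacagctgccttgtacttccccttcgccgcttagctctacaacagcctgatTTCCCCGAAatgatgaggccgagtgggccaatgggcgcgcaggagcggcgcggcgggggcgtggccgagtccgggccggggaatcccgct
Socs1: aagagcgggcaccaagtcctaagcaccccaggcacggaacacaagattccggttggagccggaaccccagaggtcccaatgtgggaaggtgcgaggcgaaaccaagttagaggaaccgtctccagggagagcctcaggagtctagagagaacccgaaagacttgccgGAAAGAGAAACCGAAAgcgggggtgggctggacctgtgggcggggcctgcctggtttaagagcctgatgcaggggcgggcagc
Gbp2b: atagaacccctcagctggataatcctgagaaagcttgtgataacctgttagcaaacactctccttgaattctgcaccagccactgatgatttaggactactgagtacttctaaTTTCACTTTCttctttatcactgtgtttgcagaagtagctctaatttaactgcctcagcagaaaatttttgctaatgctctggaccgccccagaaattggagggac
Gbp5: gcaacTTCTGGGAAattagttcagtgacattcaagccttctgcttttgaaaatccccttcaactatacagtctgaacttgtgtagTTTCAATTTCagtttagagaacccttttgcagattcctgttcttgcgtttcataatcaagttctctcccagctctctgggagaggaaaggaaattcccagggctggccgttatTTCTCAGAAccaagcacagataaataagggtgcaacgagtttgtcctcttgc
Irgm2: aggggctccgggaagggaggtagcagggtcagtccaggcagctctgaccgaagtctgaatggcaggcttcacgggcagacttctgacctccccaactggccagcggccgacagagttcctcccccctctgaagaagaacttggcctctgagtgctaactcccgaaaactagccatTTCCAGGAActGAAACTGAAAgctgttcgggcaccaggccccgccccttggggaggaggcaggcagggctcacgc
*Irf1* held 1 GAS match, from 90 to 82 bases before its first start, and none before its second start. *Socs1* held 2 ISRE matches that overlap each other, *Gbp2b* 1 ISRE match, read on the opposite strand, and *Irgm2* 1 GAS and 1 ISRE match side by side. *Gbp5* had the most matches, 2 to the GAS letters and 1 to the ISRE letters. Before *Ifng* 1 GAS match was found at the far end of the window, and before *Ifngr1*, *Jak1* and *Jak2* none of either kind. Among all 32851 promoters of this length, 7.02% held the GAS letters, 2.98% the ISRE letters and 0.332% both. A match is a description of letters and not a site shown to be bound. Siah2 lies on the same chromosome 3 as the cluster, 83.8 Mb from *Gbp5*.

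**Figure D1:**
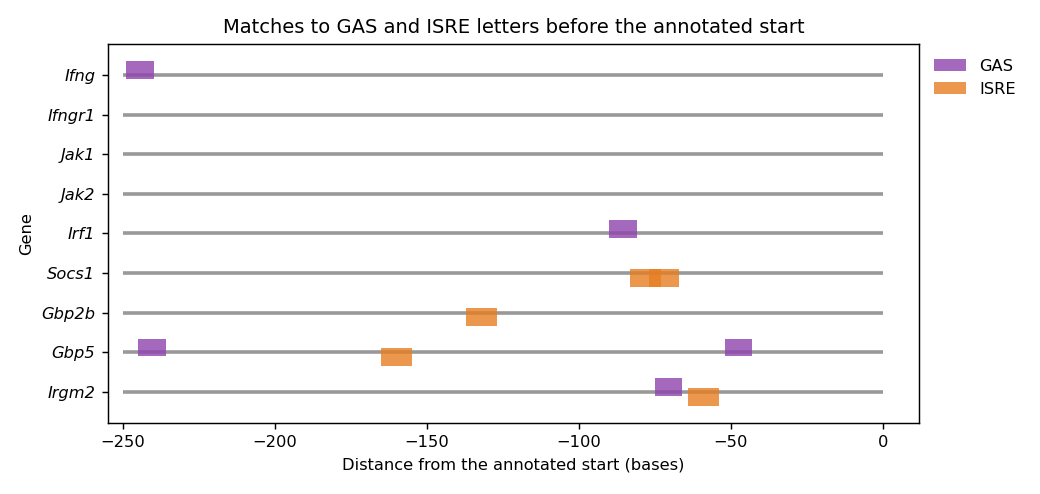
Matches to the GAS letters (purple) and the ISRE letters (orange) in the 250 bases before the first annotated start of each of the 9 genes, with distance from that start in bases on the horizontal axis. All 5 target genes from *Irf1* to *Irgm2* hold at least 1 match, and *Ifngr1*, *Jak1* and *Jak2* hold none.

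The values are normalized counts, which are barcode counts after background subtraction, scaled so that 20 reference genes have the same geometric mean in each tumor. KO was compared with WT on log2(normalized count + 1) with limma's two-sided moderated test and Benjamini-Hochberg adjustment over the 770 probes. At an adjusted p under 0.05, 6 of the 9 genes were higher in KO tumors and 0 lower, where 41% of all probes passed (31.3% higher, 9.74% lower). The 6 were *Gbp2b*, *Ifng*, *Gbp5*, *Socs1*, *Irf1* and *Irgm2*, and the 3 that did not pass were *Ifngr1*, *Jak1* and *Jak2*. For 5 of the 9 the 5 KO values all exceeded the 5 WT values, and for 0 they were all below. Over all probes the groups were without overlap for 31.6% (24.5% higher, 7.01% lower). The median log2 fold change was 0.91 over the 9 genes and 0.24 over all probes. Before scaling, a tumor's counts summed to 443454 to 578705 (WT) and 382860 to 581637 (KO). Scaling turned these sums into 512955 to 585366 for WT and 575773 to 741789 for KO. Of the 20 reference genes that set the scale, 2 were themselves higher and 3 lower in KO tumors at that threshold. Those that passed ran from *G6pdx* at 0.25 to *Gusb* at -0.31, and the median of the 20 was 0.0089. Nothing in the labels says whether the 5 tumors of a group came from 5 mice, so that p-values measure the spread between these samples. Since whole tumors were measured, a larger number of cells of one type and more RNA per cell cannot be told apart.

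**Figure D2:**
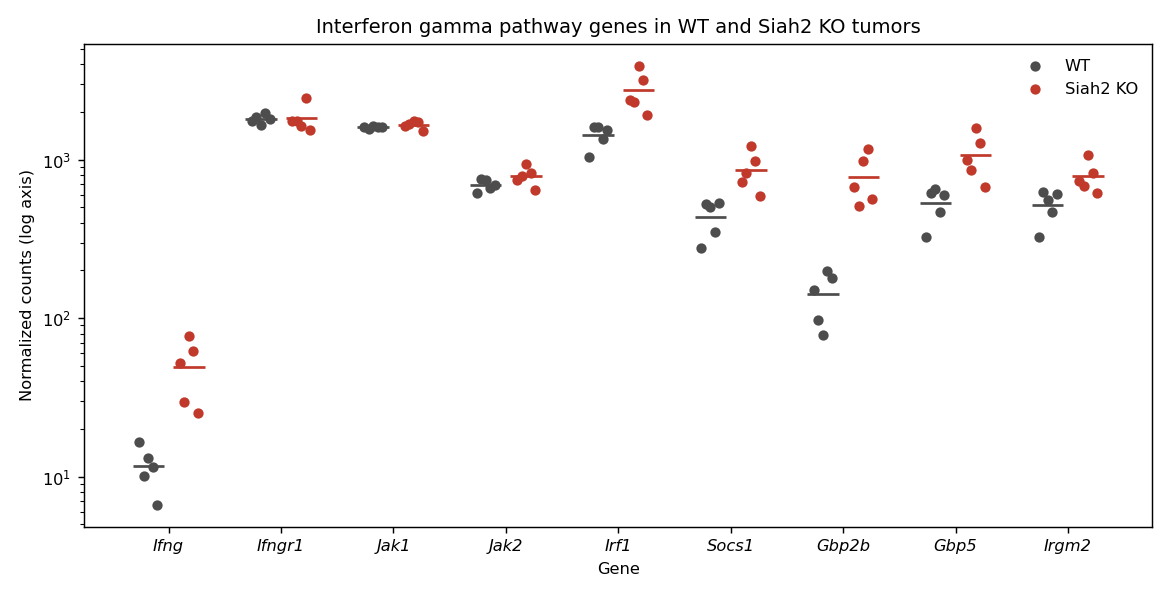
Normalized counts of the 9 genes on a log axis in the 5 WT tumors (grey) and the 5 KO tumors (red), 1 point per tumor, with the mean as a bar. *Ifng*, *Irf1*, *Socs1*, *Gbp2b* and *Gbp5* show no overlap between the groups, *Irgm2* overlaps in 1 KO tumor, and *Ifngr1*, *Jak1* and *Jak2* lie at like levels.

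The ligand gene *Ifng* was at 16.6, 10.1, 13.2, 11.6 and 6.65 normalized counts in WT replicates 2, 3, 4, 5 and 6. In KO replicates 1, 2, 3, 5 and 6 it was at 51.9, 29.7, 77.0, 61.6 and 25.3. The lowest KO tumor, replicate 6, was thus above the highest WT tumor, replicate 2. Its log2 difference was 1.92 (standard error 0.33, limma adjusted p = 0.0015), a rise of 3.79-fold with a 95% interval of 2.28 to 6.30, and it ranked 17 of the 770 probes. A two-sided exact permutation test gave p = 0.0079, the smallest that 5 against 5 tumors allow. *Ifng* was the member with the lowest counts, 6.90 to 17.4 (WT) and 18.6 to 61.0 (KO) before scaling. Raising every value under 20 to 20 put all WT tumors at that floor and brought the log2 difference to 1.14 (limma adjusted p = 0.014).

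The receptor and kinase genes did not pass the test. *Ifngr1*, the chain that binds the cytokine, had 1740, 1862, 1646, 1978 and 1809 normalized counts in WT replicates 2 to 6. It had 1749, 1753, 1638, 2452 and 1546 in KO replicates 1, 2, 3, 5 and 6, and so the KO tumors lay on both sides of the WT range, replicate 5 far above the others. The log2 fold change was -0.00070 (95% interval -0.29 to 0.28, adjusted p = 0.999 from limma). *Jak1*, the kinase of that chain, had 1603 ± 21.9 normalized counts for WT, where tumors differed little, against 1657 ± 88.5 for KO (SD, n = 5 each). Of the KO tumors, 4 were above all WT tumors and replicate 6 was below all of them, and the log2 fold change was 0.047 (95% interval -0.11 to 0.21, adjusted p = 0.62). *Jak2*, the kinase of the other chain, ranged from 612 to 758 (WT) and from 647 to 933 (KO), with 3 KO tumors above all WT tumors. Its log2 fold change was 0.18 (95% interval -0.073 to 0.43, adjusted p = 0.24). The direction of *Jak1* and *Jak2* depended on the scaling, while *Ifngr1* was at or below 0 under each scaling run. Quantile normalization, which moved the median of all probes from 0.24 to -0.040, put all 3 lower in KO tumors at an adjusted p under 0.05, at -0.44 for *Ifngr1*, -0.37 for *Jak1* and -0.25 for *Jak2*, and it left 5 of the 9 genes higher. With the median endogenous probe made equal in every tumor (median scaling), *Ifngr1* was at -0.27 (adjusted p = 0.059), *Jak1* at -0.22 (adjusted p = 0.053) and *Jak2* at -0.090 (adjusted p = 0.48).

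*Irf1*, the early transcription factor whose promoter carries the single GAS match printed above, had 1031, 1605, 1606, 1346 and 1529 normalized counts in WT replicates 2 to 6. In KO replicates 1, 2, 3, 5 and 6 it had 2368, 2318, 3896, 3175 and 1919, all above the WT tumors. It rose by 0.91 on the log2 scale (standard error 0.20, adjusted p = 0.0053 from limma). *Socs1*, the feedback inhibitor of the Janus kinases, was at 277, 522, 504, 349 and 534 in WT replicates 2 to 6 and at 721, 819, 1214, 973 and 592 in KO replicates 1, 2, 3, 5 and 6. The groups did not overlap, and the log2 fold change was 0.98 (standard error 0.24, adjusted p = 0.0083). Inhibitor and transcription factor were also set against each other. Within a tumor the log2 ratio of *Socs1* over *Irf1* averaged -1.66 (SD 0.090) for KO and -1.73 (SD 0.18) for WT, 5 tumors each, a difference of 0.068 (standard error 0.091, two-sided exact permutation p = 0.51).

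*Gbp2b*, the guanylate-binding gene that older lists call *Gbp1*, changed most of the 9. WT replicates 2 to 6 had 150, 97.8, 78.3, 199 and 180 normalized counts, and KO replicates 1, 2, 3, 5 and 6 had 672, 508, 974, 1161 and 564. The lowest KO tumor was well above the highest WT tumor. It rose by 2.46 on the log2 scale (standard error 0.31, limma adjusted p = 0.00039), 5.52-fold with a 95% interval of 3.40 to 8.96, in rank 5 of the 770 probes. *Gbp5*, a guanylate-binding gene linked to inflammasome activation, was at 323, 618, 649, 464 and 598 in WT replicates 2 to 6. It was at 995, 859, 1577, 1276 and 670 in KO replicates 1, 2, 3, 5 and 6, without overlap but with only a narrow gap between KO replicate 6 and WT replicate 4. It rose by 0.999 on the log2 scale (standard error 0.26, adjusted p = 0.012), and with median scaling KO replicate 6 fell below WT replicate 4. *Irgm2* was at 325, 626, 560, 470 and 609 in WT replicates 2 to 6 and at 734, 686, 1067, 829 and 612 in KO replicates 1, 2, 3, 5 and 6. KO replicate 6 lay under WT replicate 3, the other 4 above all WT tumors, and the log2 fold change was 0.61 (standard error 0.21, adjusted p = 0.039, exact permutation p = 0.016). This call was the least firm of the 6. The adjusted p of *Irgm2* was between 0.053 and 0.087 without WT replicate 2, 4 or 5 or without KO replicate 1, 3 or 5, and it was 0.14 with median scaling and 0.37 with quantile normalization. Other guanylate-binding and immunity-related GTPase genes were not analysed here, and sharing of signal between near-identical family members was not tested.

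**Figure D3:**
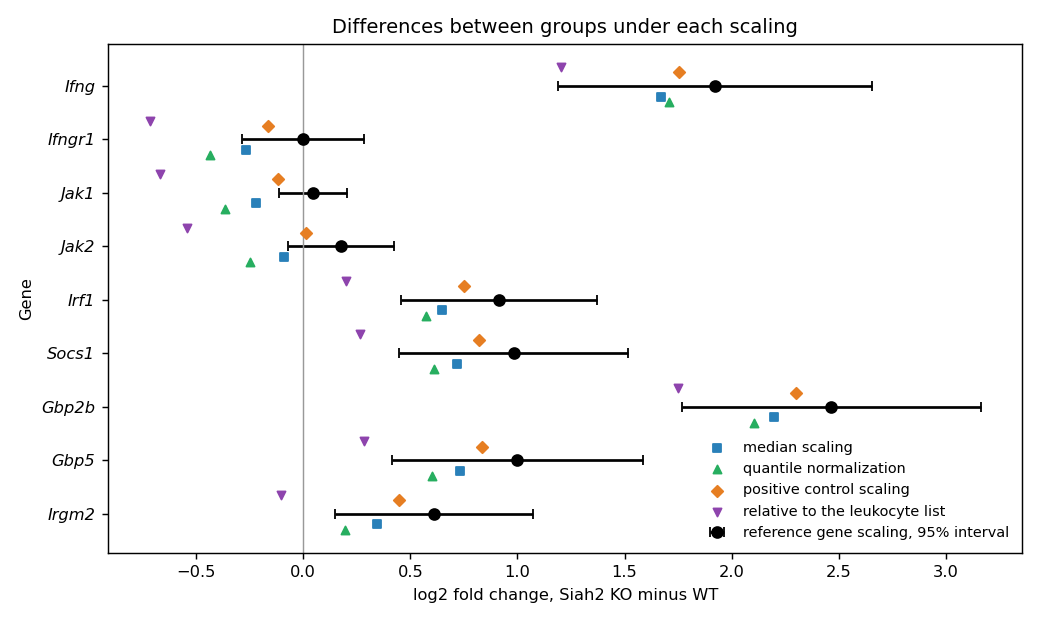
The log2 fold change of each of the 9 genes, KO minus WT. Black points with 95% intervals are the values scaled to the reference genes, and coloured marks are the same difference under median scaling, quantile normalization, positive control scaling and relative to 8 leukocyte genes. *Gbp2b* and *Ifng* are the genes farthest to the right under each, and *Ifngr1* and *Jak1* lie left of 0 under each of the coloured settings.

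The tumors of a group kept a similar order from gene to gene. KO replicates 3 and 5 were the highest of the 10 tumors for 8 of the 9 genes, *Ifngr1* being the exception, and KO replicate 6 was the lowest KO tumor for 8, with *Gbp2b* as the exception. These 2 high tumors also had the largest sums of normalized counts, 726023 and 741789, and KO replicate 6 had the smallest Siah2 KO sum, 575773. With every tumor scaled to the same median, KO replicates 3 and 5 were the highest for 3 of the 9 genes, *Irf1*, *Gbp2b* and *Gbp5*, and KO replicate 6 was the lowest of its group for 6. Among WT tumors the ligand and its targets were ordered differently. WT replicate 2 had the most *Ifng* of its group and yet the lowest value of all 10 tumors for *Jak2*, *Irf1*, *Socs1*, *Gbp5* and *Irgm2*. *Gbp2b* was lowest in WT replicate 4, the WT tumor with the most *Gbp5*. A relation between ligand and targets within a group of 5 tumors was not tested.

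How unequally the members changed was tested on 12 ratios within a tumor, which do not depend on the scaling of that tumor, by two-sided exact permutation tests with Benjamini-Hochberg adjustment over the 12. At an adjusted p under 0.05, 8 of the 12 ratios differed between the groups. *Ifng* rose relative to *Ifngr1* by 1.92 on the log2 scale (standard error 0.35, adjusted p = 0.016 by permutation). *Socs1* rose relative to *Jak1*, the kinase whose activity its product limits, by 0.94 (standard error 0.24, adjusted p = 0.016), whereas for *Jak2* over *Jak1* the difference was 0.13 (standard error 0.080, adjusted p = 0.20). *Gbp2b* rose relative to *Gbp5* of the same cluster by 1.47 (standard error 0.40, adjusted p = 0.016) and relative to *Irgm2* by 1.85 (standard error 0.39, adjusted p = 0.016), in 5 of 5 KO tumors each. In WT tumors the *Gbp2b* to *Gbp5* ratio was spread widely, with log2 values between -3.03 in replicate 4 and -1.10 in replicate 2, while the KO tumors lay between -0.76 and -0.14. The rise of *Gbp5* relative to *Irgm2* was smaller, 0.39 (standard error 0.099, adjusted p = 0.027), with 4 of 5 KO tumors above all WT tumors, and the adjusted p was 0.054 without WT replicate 3, 5 or 6.

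**Figure D4:**
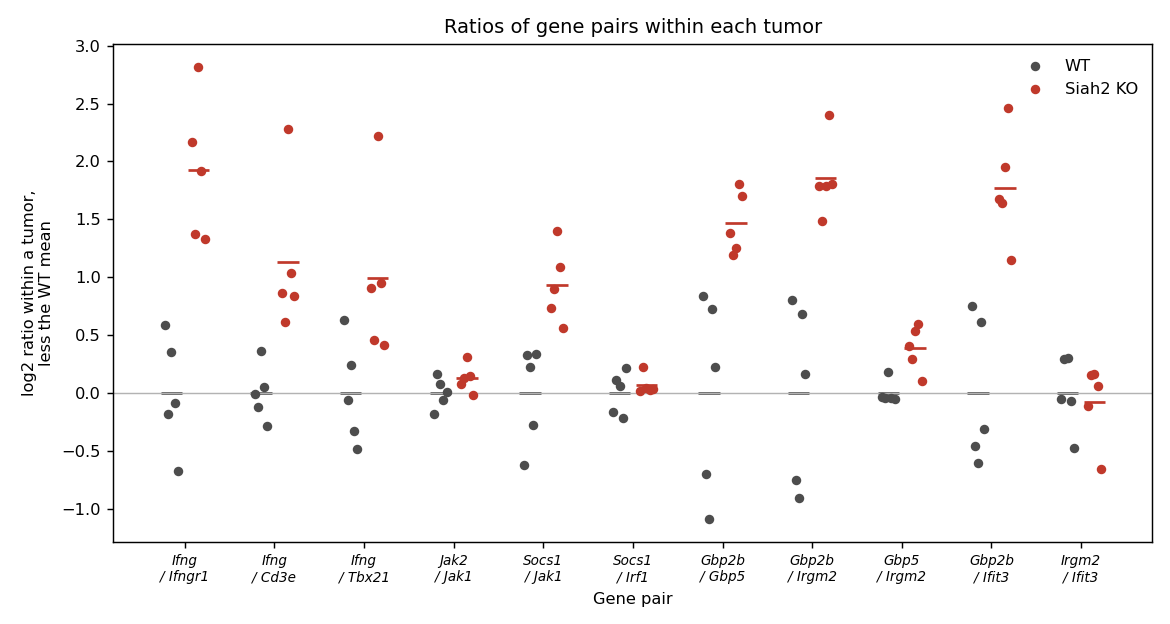
The log2 ratio of 11 gene pairs within each tumor, less the mean of the WT tumors, with WT in grey, Siah2 KO in red, 1 point per tumor and the group mean as a bar. The ratios of *Gbp2b* over *Gbp5*, *Irgm2* and *Ifit3*, of *Ifng* over *Ifngr1* and *Cd3e* and of *Socs1* over *Jak1* do not overlap between groups, and KO replicate 3 stands at 2.28 for *Ifng* over *Cd3e*, above the other KO tumors.

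Genes of the cell types that make *Ifng* were also higher, and their part in its rise was not tested. Of 11 T cell genes 6 were higher in KO tumors and 0 lower, where 31.3% of all probes were higher. Among the 6 were *Cd3g* at 0.93, a chain of the T cell receptor complex, and *Zap70* at 0.58, a kinase of its signal. The list's median log2 fold change was 0.70, with 9 of the 11 genes above 0. With median scaling 4 of the 11 were higher and 1 lower, with quantile normalization 3 and 1, and with positive control scaling 0 and 0. The summed level of the 11 genes ranged from 658 to 847 normalized counts (WT) and from 840 to 1608 (KO), so that KO replicate 6, the lowest of its group, overlapped the WT range. *Cd8a* and *Cd8b1*, the chains of the CD8 coreceptor, rose by 1.13 and 1.76, and *Cd4* was at -0.29 (adjusted p = 0.19 from limma). With median scaling and with quantile normalization 2 of these 3 genes were higher and 1 was lower, and with positive control scaling 1 was higher and 0 lower. Of 9 NK cell genes 7 rose, with a median of 0.78, from *Klrc1* at 1.49 to *Ncr1* at 0.53, and their sums, 1163 to 1513 (WT) and 2137 to 3067 (KO), did not overlap. Taken alone, *Klrc1* did not overlap between the groups and *Ncr1* did. Which cells held these transcripts was not tested. *Klra1* was near the floor, with group means of 1.30 and 1.06. With median scaling, quantile normalization and positive control scaling, 6, 5 and 2 of the 9 NK cell genes were higher. Leukocyte genes, among them *Ptprc* (CD45), were higher in 7 of 8 cases with a median of 0.68, and their sum did not overlap between groups. Under the same 3 scalings 5, 4 and 1 of the 8 leukocyte genes were higher. *Ifng* rose more than the T cell gene *Cd3e*, by a log2 ratio of 1.13 (standard error 0.32, adjusted p = 0.016 by exact permutation over 12 ratios, higher in 5 of 5 KO tumors). Without KO replicate 3, where the ratio was highest, the difference was 0.84. Relative to *Tbx21*, which encodes the T-bet factor that drives *Ifng*, the difference was 0.99 (adjusted p = 0.048), but it was 0.68 (adjusted p = 0.083) without KO replicate 3, and the adjusted p was over 0.05 also without KO replicate 1 or 5 or without WT replicate 3, 4, 5 or 6. With values under 20 raised to 20, neither ratio passed, at 0.34 for *Cd3e* and 0.24 for *Tbx21*.

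Set against leukocyte genes, the members differed. With each tumor centred on its median over 8 leukocyte genes, *Ifng* stayed higher by 1.21 (adjusted p = 0.010 from limma) and *Gbp2b* by 1.75 (adjusted p = 0.00018). On that scale *Irf1* was at 0.20 (adjusted p = 0.44), *Socs1* at 0.27 (adjusted p = 0.38), *Gbp5* at 0.28 (adjusted p = 0.37) and *Irgm2* at -0.11 (adjusted p = 0.70). *Ifngr1*, *Jak1* and *Jak2*, genes that most cell types express, were at -0.72, -0.67 and -0.54 (adjusted p of 0.00084, 0.0033 and 0.017). The median of all probes on that scale was -0.48, since the leukocyte genes that set it were themselves higher in KO tumors. Relative to the median of the 11 T cell genes, *Ifng* was higher by 1.19 (adjusted p = 0.0071) and *Gbp2b* by 1.73 (adjusted p = 0.00092), and no other member was higher at an adjusted p under 0.05. The median of all probes relative to the T cell genes was -0.50.

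The genes around the pathway were taken from fixed lists, chosen with earlier results of these data known. Of 16 genes that induce *Ifng* or belong to the Th1 program, 6 were higher and 1 lower, with a median log2 fold change of 0.37 beside 0.24 for all probes, of which 31.3% were higher. *Il12rb2* and *Il12rb1*, the chains of the receptor for interleukin 12, rose by 2.44 and 1.54, and *Tbx21* by 0.93, while *Il12b*, the subunit that interleukin 12 shares with interleukin 23, fell by 0.86 (standard error 0.24, adjusted p = 0.017 from limma). *Il12a* was near the floor, with means of 2.05 (SD 1.71) for WT and 2.79 (SD 1.89) for KO, 5 tumors each. Of 8 further genes of signal transduction 6 rose, among them *Irf8* at 0.70, *Irf2* at 0.51 and *Stat3* at 0.31, and the kinases *Jak3* and *Tyk2* were at 0.039 and 0.030 and did not pass. With median scaling 4 of these 8 genes were higher, with quantile normalization 2 and with positive control scaling 0, and the list's median stayed above 0 under each, between 0.15 and 0.39. *Ifngr2* was not analysed here.

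Of 30 further targets of interferon gamma, 22 rose and 0 fell, where 31.3% of all probes were higher and 9.74% lower. The list's median log2 fold change was 0.70 against 0.24 for all probes. The ends of the range among those that passed were *Nos2*, the inducible nitric oxide synthase, at 4.09, *Cd274*, which encodes PD-L1, at 2.05, *Psmb10*, an immunoproteasome subunit, at 0.57, and the invariant chain gene *Cd74* at 0.46. Among the 8 that did not pass were *Ciita*, the master regulator of MHC class II, at 0.21, and *Fas* at 0.13. The 22 antiviral targets of type I interferon gave 12 higher and 1 lower, with a median of 0.57, from *Ifitm1* at 1.96 to *Ifi27* at -0.45. Within a tumor, *Gbp2b* rose relative to the antiviral gene *Ifit3* by 1.77 (standard error 0.36, adjusted p = 0.016 by exact permutation), and *Irgm2* over *Ifit3* differed by -0.079 (standard error 0.21, adjusted p = 0.67). The type I ligand genes *Ifna1*, *Ifna2* and *Ifna4* were near the floor, with group means from 1.06 to 3.39 normalized counts, *Ifnb1* was also low, with means of 2.06 for WT and 6.004 for KO, and did not pass (adjusted p = 0.082), and of their receptor chains *Ifnar1* fell by 0.25 (adjusted p = 0.029 from limma) and *Ifnar2* was at 0.27 (adjusted p = 0.14). With median scaling 16 of the 30 targets of interferon gamma and 6 of the 22 antiviral targets were higher, and the list medians were 0.43 and 0.30.

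**Figure D5:**
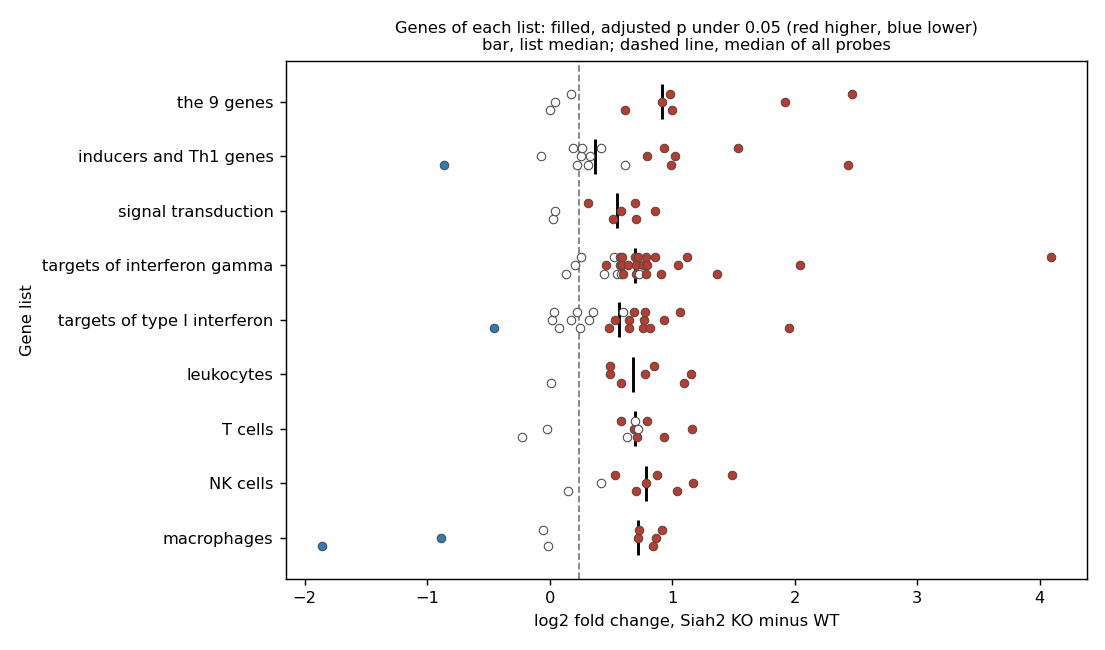
The log2 fold change, KO minus WT, of every measured gene of the 9 lists shown, 1 point per gene, filled red or blue where it was higher or lower at an adjusted p under 0.05 and open otherwise. Bars are list medians and the dashed line is the median of all probes, 0.24. The medians of the 9 lists drawn lie to the right of that line, from 0.37 for the inducers and Th1 genes to 0.91 for the 9 genes. Of the lists not drawn, CD8 and CD4 (1.13), neutrophils (0.86) and other interferon receptors and ligands (0.27) lay to its right. To its left lay B cells (0.19), the reference genes (0.0089), dendritic cells (-0.23), endothelium (-0.24), fibroblasts (-0.74) and melanoma markers (-1.28). The targets of interferon gamma are at 0.70, beside leukocytes at 0.68, T cells at 0.70, macrophages at 0.72 and NK cells at 0.78.

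The probes most like *Ifng* and *Gbp2b* were sought by the root mean square difference between log2 profiles over the 10 tumors, each less its own mean, among 601 probes that averaged 20 normalized counts or more. Nearest to *Ifng* was *Il7r*, the receptor for interleukin 7, at 0.28 on the log2 scale, followed by *Il1rl1*, *Cd36*, *Bst1* and *Ccl11* at 0.39 to 0.43, where the median over probes was 0.98. Nearest to *Gbp2b* were *Fpr2* at 0.29, a formyl peptide receptor of phagocytes, and *Slamf7* at 0.30, then *Ccl4*, *Fos* and *Ccl3* at 0.40 to 0.43, with a median over probes of 1.20. All 10 of these probes were higher in KO tumors, and a like profile follows in part from a like difference between the groups.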

How the data were processed

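RNA of 5 WT and 5 Siah2 KO tumors was counted on a NanoString panel of immune genes. The signal that the authors deposited is a normalized count for 784 probes, made in nSolver, where 20 reference genes set the scale of a tumor. Low values rise in equal steps from a floor, as after subtraction of a constant background, whose size is not given in the sources used here. Each tumor's factor, read from these steps, was between 0.918 and 1.60. In every tumor 100% of values under 150 lay within 0.1 of a step. They are background-subtracted counts and were not treated as whole reads. Control probes (14) were left out.

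Groups come from the sample titles. log2(value + 1) of 770 probes was fitted without covariates (limma 3.58.1, lmFit and eBayes, R 4.3.3). Exact permutation tests used all 252 divisions. The members, lists, ratios and alternatives were chosen with earlier results of these data known. Besides the 9 genes, those named are the genes of the 12 ratios, the 2 highest and 2 lowest that passed in a list, and the 5 probes nearest to *Ifng* and to *Gbp2b*. Others (*S100b*, *Mcam*, *Ptprc*, *Klra1*, *Cd8a*, *Cd8b1*, *Cd4*, *Il12a*, *Jak3*, *Tyk2*, *Ciita*, *Fas* and the type I ligands and receptors) were named after their values were seen. Of the 12 ratios, all of which entered the adjustment, 11 are given, and some genes that the rule names are not reported here. The alternatives were 3 other scalings, a pseudocount of 10, a floor of 20, a mean of at least 20, endogenous probes only, the methods' equal-variance test, an intensity trend, the replicate number as a block, values relative to T cell or leukocyte genes, and leaving out each tumor. The lists of macrophages, neutrophils, dendritic cells, B cells, fibroblasts and endothelium are described in the closing section. Fits were tested on simulated data. Plots were drawn with Python 3.11.15 and matplotlib 3.10.9.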

Additional observations from a re-analysis of the deposited data

Results flagged for a closer look

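*Ifngr1* in KO replicate 5, at 2452 normalized counts, stood apart from the other 4 KO tumors, which lay between 1546 and 1753. The gap took 0.727 of the group's whole range, above the limit of 0.71 for groups of 5. Of 18 groups tested, 2 for each of the 9 genes, it was the only one, and chance alone gives about 1 in 20.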

How the results depend on the processing

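*Ifng* and *Gbp2b* stayed higher at an adjusted p under 0.05 under all 23 alternatives that were run for them, at log2 fold changes of 1.14 to 2.13 and 1.73 to 2.61. With each tumor left out in turn, 268 to 334 probes and 5 or 6 of the 9 genes were called, *Irgm2* was between 0.45 and 0.69, *Ifngr1* between -0.11 and 0.055, and the ratio of *Irgm2* over *Ifit3*, which passed in none of these, was between -0.20 and 0.066. Scaling to the positive control probes left 91 probes and 2 of the 9 genes called, with *Irf1* at 0.75 (adjusted p = 0.13), *Socs1* at 0.82 (adjusted p = 0.094), *Gbp5* at 0.84 (adjusted p = 0.10), *Irgm2* at 0.45 (adjusted p = 0.43) and *Jak1* reversed at -0.12 (adjusted p = 0.92). Median scaling gave 163 probes higher and 152 lower, where the reference genes gave 241 and 75, with *Irgm2* at 0.35, *Jak1* at -0.22 and *Jak2* at -0.090. Quantile normalization gave 153 probes higher and 181 lower, with *Irgm2* at 0.20, *Ifngr1* at -0.44, *Jak1* at -0.37 and *Jak2* at -0.25. *Irgm2* kept its log2 fold change of 0.61 but not its call with a floor of 20 (adjusted p = 0.052) and with the methods' equal-variance test (adjusted p = 0.059), which called 6 of the 9 genes before adjustment and 5 after it, and 379 and 314 of all probes. Relative to the T cell genes, *Irf1* was at 0.18, *Socs1* at 0.25, *Gbp5* at 0.26, *Irgm2* at -0.12, *Ifngr1* at -0.74, *Jak1* at -0.69 and *Jak2* at -0.56, and relative to the leukocyte genes at 0.20, 0.27, 0.28, -0.11, -0.72, -0.67 and -0.54 in the same order. The median of all probes was -0.50 relative to the T cell genes and -0.48 relative to the leukocyte genes. The cause of these changes was not tested. The replicate numbers were not taken as pairs, since deviations of same-numbered tumors correlated at 0.035, 0.050, 0.17 and 0.35. The replicate block, fitted to the 8 tumors with a number that both groups hold, called 235 probes, and 232 without the block, and of the 9 genes only *Irgm2* lost its call, at 0.67 with an adjusted p of 0.060 with the block and 0.087 without it. Counts before scaling of 6.90 to 17.4 limit the precision of *Ifng* in WT tumors.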

Other observations

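Cell types that are not main sources of interferon gamma moved in both directions, where 31.3% of all probes were higher and 9.74% lower. Of 9 macrophage genes 5 rose and 2 fell in KO tumors, with *Msr1*, a scavenger receptor, at 0.92 and *Cd163*, a haptoglobin-hemoglobin receptor, at -1.86. Of 6 neutrophil genes 2 were higher, *Fpr2* at 2.30 and *Csf3r* at 0.95, and of 4 dendritic cell genes 1, *Itgax* at 0.86, with a list median of -0.23. With median scaling 1 dendritic cell gene was higher and 2 were lower, with a median of -0.48. B cell genes were mostly near the floor, 7 of 8 with a mean under 20 normalized counts. Of 6 fibroblast genes 5 were lower, from *Fap* at -1.97 to *Col1a1* at -0.41. The other, *Thy1*, was higher at 0.71, but mouse T cells also carry its product, so the cells behind its rise cannot be told apart here. Of 8 endothelial genes 2 were lower and 1 higher, from *Vwf* at -0.79 to *Pecam1* at 0.88. Which cells held the *Pecam1* transcripts was not tested. With median scaling 6 endothelial genes were lower.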
